A study of Mus musculus with 24 samples.

Results

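The transcriptome of the dentate gyrus under a drug alone was set directly against that under running alone, in mice of 1 genotype. The dentate gyrus is the part of the hippocampus that holds the granule neurons and keeps adding neurons in adult life. All libraries labelled BCI-838 alone (4) and exercise alone (5) were compared, 9 of the 24 libraries of the series. Both groups carry APP/PS1, a mutant amyloid precursor protein and presenilin 1 model of amyloid deposition, so the transgenes are shared. The BCI-838 group received the drug orally, 5 mg/kg each day over 1 month, and had no running wheel. The exercise group had free access to a wheel for 1 month and no drug. The other 15 libraries, 5 each from wild-type C57BL6/J controls, untreated APP/PS1 controls and APP/PS1 mice given drug and wheel together, served to estimate the spread and as reference levels. The age of the mice and the transgenic line are not named in the labels, and the design text gives 5 mice per group.

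BCI-838 is a prodrug of an antagonist of group II metabotropic glutamate receptors, mGluR2 and mGluR3, which are encoded by Grm2 and Grm3. These receptors couple to inhibitory G proteins and, on presynaptic terminals, limit glutamate release, and the granule neurons of the dentate gyrus are rich in mGluR2. Wheel running is known to raise proliferation and survival of newborn granule neurons in rodents and to alter growth factor expression in the hippocampus. The direct comparison asks in which transcripts the 2 treatments differ, a question that a comparison of each with untreated mice does not answer.

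Few transcripts separated the groups at the level of single genes. Of 18286 genes tested, 4 had an adjusted p under 0.05 (called genes, edgeR's quasi-likelihood test with Benjamini-Hochberg adjustment), 0.0219% of the genes, and all 4 were lower with BCI-838 than with exercise. They were Lor, Exosc4, Zdhhc12 and Slc25a28. No gene was called higher with BCI-838 by that test, while DESeq2 called 129 higher and 296 lower. At an unadjusted p under 0.05 there were 3125 genes, 17.1% of those tested, of which 1791 (9.79%) were lower and 1334 (7.3%) higher with BCI-838. For this comparison, counts were simulated with the real library sizes and the spread of each gene, drawn independently for each gene. In them, 35.8% of genes altered 1.5-fold, 56.7% of those altered 2-fold and 75.8% of those altered 4-fold were called. Variation that genes share between libraries was not simulated, so these shares may not hold in the real data.

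The number of calls depended on the method, and with all libraries voom with quality weights called 3424 genes. Among the edgeR fits that left out 1 library, it depended most on 1 exercise library. The 2 leading principal components of the 9 compared libraries held 29.8% and 19.2% of the variance. Exercise library 4 lay at one end of the first, with exercise library 5 further out at the other end, and alone at one end of the second. Without it, 1200 of 18224 genes were called (6.58%), 721 lower (3.96%) and 479 higher (2.63%) with BCI-838, and the 4 genes above were among them. Leaving out exercise library 3 gave 36 calls. Fold changes below are from all libraries unless exercise library 4 is said to be left out. That library was singled out after the results were seen. It lay with the BCI-838 libraries in the midbrain and length measures below, so leaving it out can by itself widen the difference between the groups. Values without it show how far a result rests on that library and are no further support. The plot of calls under each setting shows the counts of called genes.

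**Figure D1:**
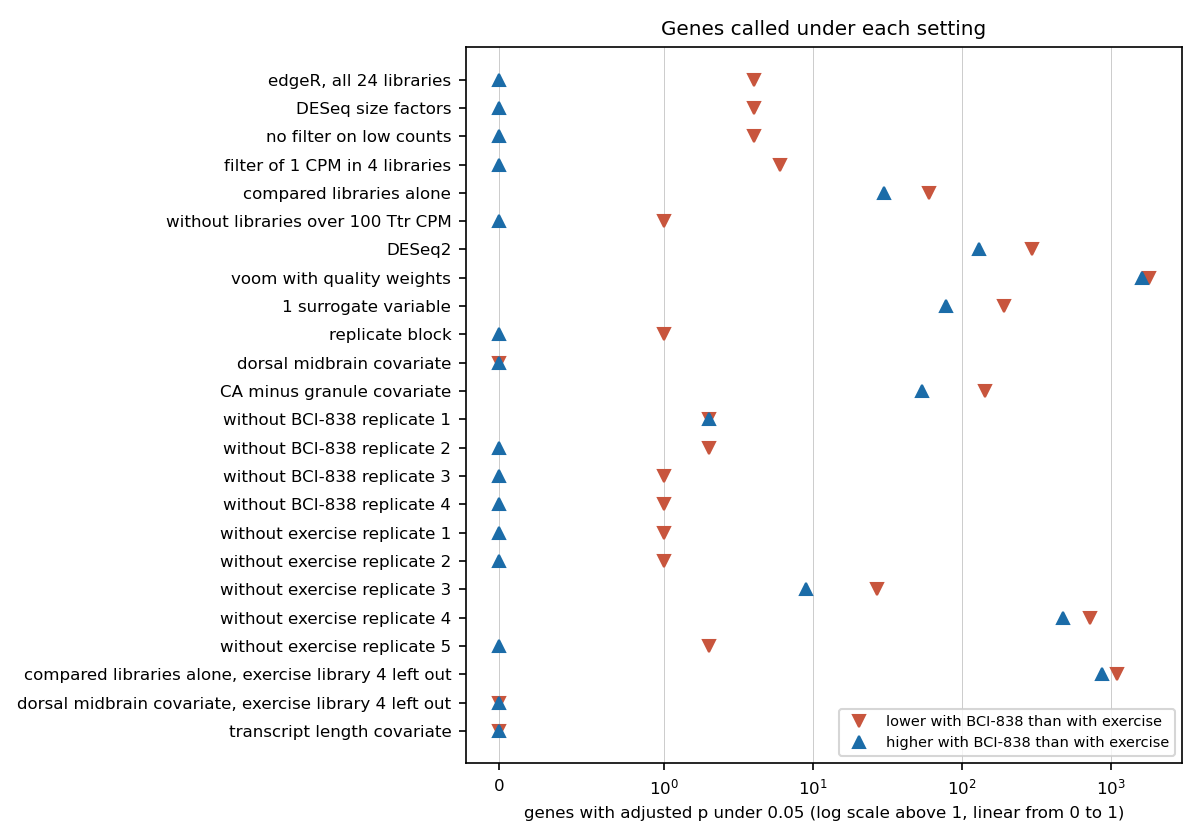
Genes with an adjusted p under 0.05 for BCI-838 against exercise under each way of fitting (x axis, log scale above 1; y axis, the setting; triangles pointing up for genes higher and down for genes lower with BCI-838). With all libraries edgeR called 0 higher and 4 lower, and without exercise replicate 4 it called 479 higher and 721 lower.

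Other features of the libraries moved with the groups, and their part in the results was not tested. Transcription factors of the dorsal midbrain were used as markers of RNA from outside the dentate gyrus. Of the 16 tested, 14 had a higher fitted level with BCI-838, and their summed level ran from 97.4 to 178 CPM, the counts scaled by library size, in the BCI-838 libraries and from 30.9 to 182 in the exercise libraries, highest in exercise library 4. The median log2 fold change of this list was 1.17, and 2.27 without exercise library 4. Pax7, which marks dorsal midbrain neurons and was chosen after its values were seen, was at 9.86, 6.73, 11.5 and 13.4 CPM in BCI-838 libraries 1 to 4 and at 2.07, 1.64, 1.19, 16.1 and 0 in exercise libraries 1 to 5. Gata3 and Sox14 were also at 0 in exercise library 5, where Meis2 alone held 22.0 of the summed 30.9 CPM. The summed level thus rests largely on Meis2 in that library. With the mean level of this list, its own genes included, as a covariate, no gene was called by edgeR (smallest adjusted p 0.0577, and 2174 genes at an unadjusted p under 0.05). Choroid plexus RNA, by contrast, was low in all 9, with Ttr between 0.573 and 7.89 CPM.

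Transcript length and GC content also moved with the groups. The median log2 fold change, BCI-838 minus exercise, was -0.13 in the quintile of genes with the shortest transcripts and then -0.07, -0.02, 0.02 and 0.12 in the quintiles of longer transcripts, against 0.00 over all genes tested. By GC content of the transcript, the median was 0.08, 0.04, -0.004, -0.05 and -0.11 from the lowest to the highest quintile. The mean log2 level of the longest quintile minus that of the shortest was 3.60, 3.58, 3.72 and 3.60 in BCI-838 libraries 1 to 4 and 3.23, 3.22, 3.65, 3.74 and 3.39 in exercise libraries 1 to 5. Exercise libraries 1, 2 and 5 were thus below all of the BCI-838 libraries, and exercise libraries 3 and 4 were not. With this difference as a covariate, edgeR called no gene (smallest adjusted p 0.0537, and 1600 genes at an unadjusted p under 0.05). The covariate is made from the same counts, so genes of the shortest and longest quintiles are part of it. A shift toward 0 in lists that hold such genes can be built in. Loci that hold ribosomal RNA-like sequence, Lars2 and Mir5105, took 0.326% ± 0.0647 of the counts with BCI-838 (SD, n = 4) and 0.203% ± 0.0298 with exercise (SD, n = 5). In bulk tissue, fewer cells of a type and less RNA per cell cannot be told apart.

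**Figure D2:**
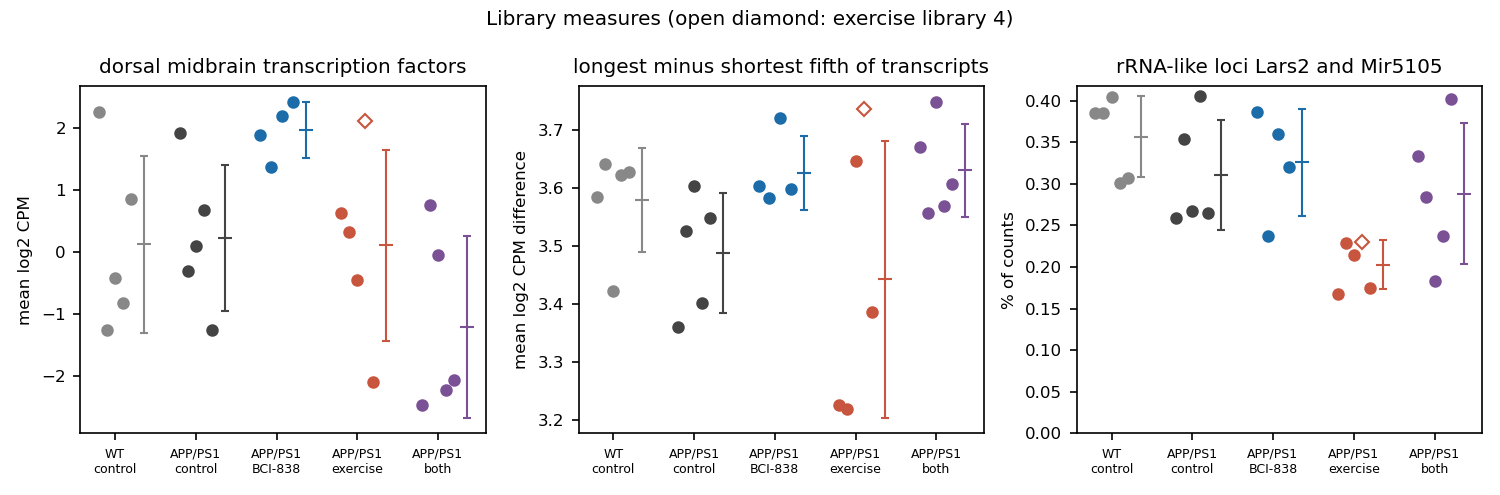
Mean log2 CPM of the dorsal midbrain transcription factors, the log2 level of the longest minus the shortest quintile of transcripts, and the percent of counts in Lars2 and Mir5105, per library in each of the 5 groups (points; the bars are mean and SD). Exercise library 4, the open diamond, lies with the BCI-838 libraries in the first 2 panels, at 2.12 and 3.74, and just below them in the third, at 0.230%.

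Both groups showed the labelled genotype. App, the mouse gene to which transgene reads can map, was at 3542 ± 228 CPM with BCI-838 and 3218 ± 506 with exercise, and Prnp, the gene whose promoter drives the transgenes in a widely used APP/PS1 line, at 1975 ± 206 and 2006 ± 228. Wild-type controls had 1728 ± 247 CPM of App and 846 ± 98.7 of Prnp (SD, n = 5). Library totals of the 9 ran from 53747119 to 60679328 counts, so depth was similar in the 2 groups.

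Lor encodes loricrin, a structural protein of the cornified envelope of skin, and had the smallest p in the comparison. Its level was 12.5, 10.3, 12.4 and 11.7 CPM in BCI-838 libraries 1 to 4 and 24.1, 20.1, 20.4, 18.9 and 23.3 CPM in exercise libraries 1 to 5. Every exercise library was above every BCI-838 library, exercise library 4 included. The log2 fold change was -0.86 (SE 0.12, adjusted p 0.00385 by edgeR's quasi-likelihood test), and -0.90 without exercise library 4 (adjusted p 0.0048). Untreated APP/PS1 mice, at 17.6 ± 3.03 CPM (SD, n = 5), lay between the groups, and mice given both treatments were at 18.4 ± 2.32. Lor was called under 20 of the 23 alternative settings, including all 9 that left out 1 of the compared libraries, and not under the 3 with a midbrain or length covariate, where its adjusted p reached 0.0697.

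The 100 bases before the annotated start of Lor are shown because this gene led the comparison. The gene lies on the minus strand of chromosome 3, at 92080271 to 92083142 in GRCm38, and the sequence, from RefSeq GRCm38.p6, covers chr3:92083143-92083242 on that strand. The capitals mark TGAGTCA, the consensus of activator protein 1 (AP-1), a motif long studied in the loricrin promoter of skin, and TATAAA, the letters of the box bound by the TATA-binding protein.
Lor: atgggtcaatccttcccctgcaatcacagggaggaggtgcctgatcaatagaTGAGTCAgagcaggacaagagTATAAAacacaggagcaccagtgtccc
Among 32851 windows of the same length before RefSeq starts, TGAGTCA was found on either strand in 1.88%, TATAAA on the gene's strand in 5.56% and both in 0.149%. These are matches of letters and show no binding.

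Exosc4 encodes a subunit of the RNA exosome, the complex that degrades and trims RNA from its end. It was at 18.9, 21.6, 19.1 and 17.6 CPM with BCI-838 and at 30.1, 27.5, 24.2, 26.3 and 27.5 CPM with exercise, with no overlap between the groups (log2 fold change -0.49, SE 0.08, adjusted p 0.0294 by edgeR). Zdhhc12, a palmitoyltransferase that attaches fatty acid to proteins, was at 3.62, 3.59, 2.81 and 3.19 CPM against 5.70, 5.48, 4.62, 5.51 and 6.89 (log2 fold change -0.77, SE 0.13, adjusted p 0.0294 by edgeR). Slc25a28, also called mitoferrin 2, carries iron into mitochondria. Its levels of 33.5, 32.9, 32.2 and 33.2 CPM lay within a narrow range with BCI-838, below all exercise libraries at 49.3, 43.6, 40.0, 38.5 and 43.2 (log2 fold change -0.38, SE 0.07, adjusted p 0.0294 by edgeR).

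These 3 genes lie at chr15:76327397-76330670, chr2:30090943-30093638 and chr19:43663801-43675006 in GRCm38. In all 3, untreated APP/PS1 mice had means between those of the 2 treatments, at 23.8, 4.73 and 37.3 CPM. Their log2 fold changes without exercise library 4 were -0.50, -0.78 and -0.42. Exons of Exosc4 overlap Oplah and those of Zdhhc12 overlap Pkn3 on the opposite strand, and whether counting used strand is not given in the sources used here. Exosc4, Zdhhc12 and Slc25a28 kept an adjusted p under 0.05 in 3, 3 and 2 of the 9 fits that left out 1 library. All 3 lost it without BCI-838 library 3 or 4 or exercise library 1, 2 or 5, Exosc4 and Slc25a28 also without BCI-838 library 1, and Zdhhc12 and Slc25a28 without BCI-838 library 2.

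**Figure D3:**
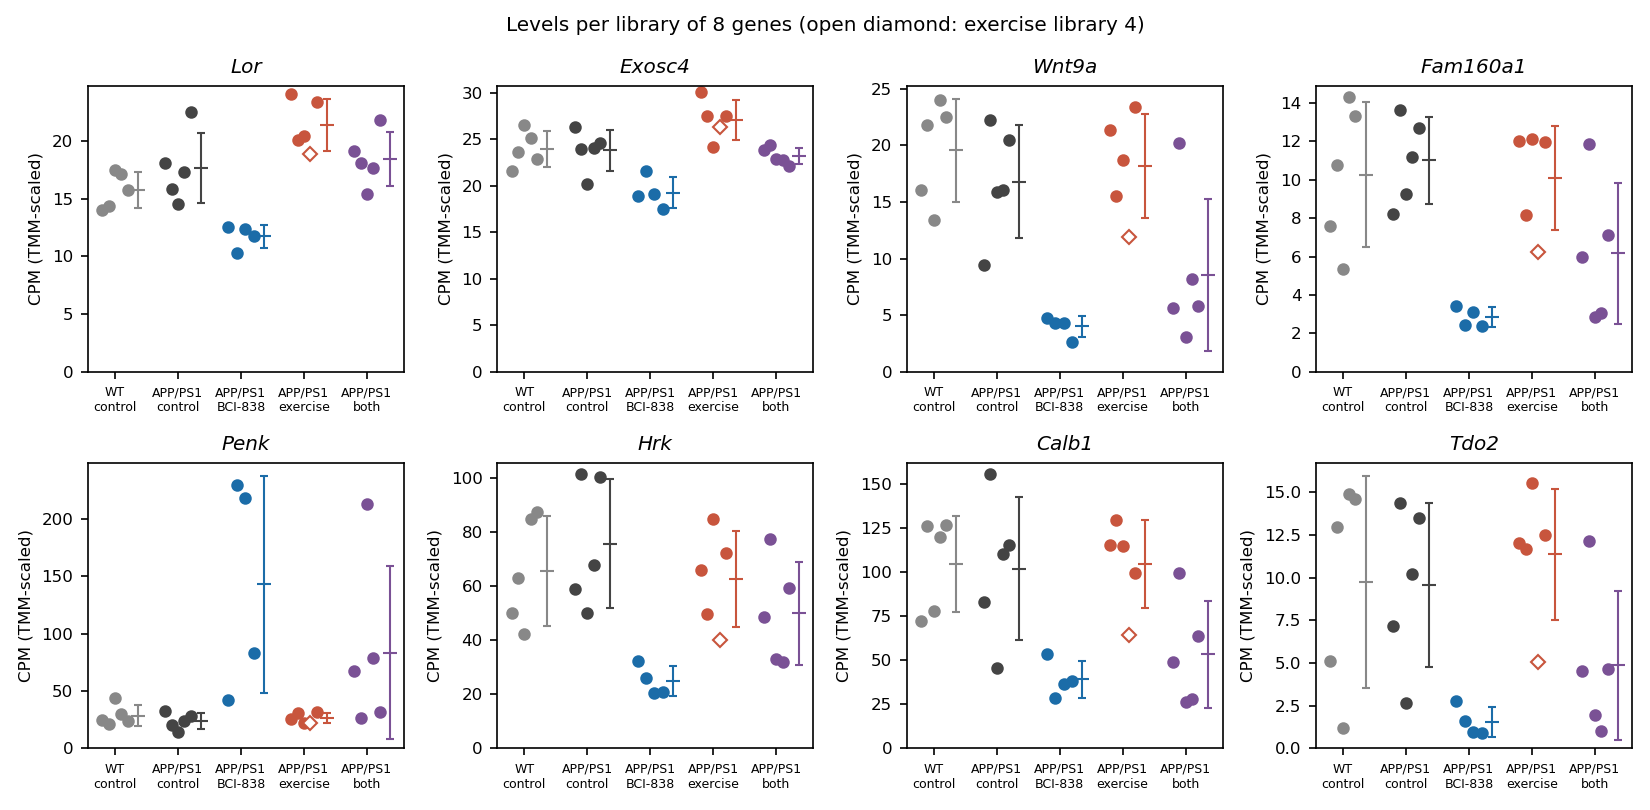
CPM of 8 genes in each library of the 5 groups (points; the bars are mean and SD; the y axes start at 0). Lor, Exosc4, Wnt9a, Fam160a1, Hrk, Calb1 and Tdo2 are lower in all 4 BCI-838 libraries than in all 5 exercise libraries, and Penk is higher.

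The 8 genes that followed these by p among those lower with BCI-838 did not pass the test, with adjusted p between 0.0596 and 0.0661. Their adjusted p lay between 0.0138 and 0.0175 without exercise library 4. The size of the difference was greatest for Wnt9a and Fam160a1. Wnt9a, a secreted ligand of the Wnt family at chr11:59306849-59333552, was at 4.78, 4.29, 4.31 and 2.63 CPM with BCI-838 and at 21.4, 15.5, 18.7, 11.9 and 23.4 CPM with exercise (log2 fold change -2.18, SE 0.40, adjusted p 0.0596 by edgeR, and -2.30 without exercise library 4). Untreated APP/PS1 mice were at 16.8 ± 4.97 CPM and mice given both treatments at 8.57 ± 6.72, 1 of these within the exercise range. Fam160a1 was at 3.44, 2.44, 3.13 and 2.41 CPM against 12.0, 8.18, 12.1, 6.25 and 11.9 (log2 fold change -1.82, SE 0.36, adjusted p 0.0637 by edgeR, and -1.95 without exercise library 4). For both genes exercise library 4 was the lowest of its group and still above the BCI-838 libraries. Exons of Fam160a1 overlap a predicted transcript on the same strand, so its counts are uncertain.

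The other 6 had smaller differences, and none of them overlapped between the groups. Snrpc and Lsm4 encode proteins of small nuclear ribonucleoproteins, which take part in splicing. Snrpc was at 23.8 ± 0.94 CPM with BCI-838 and 30.8 ± 3.22 with exercise, and Lsm4 at 29.5 ± 2.13 and 41.6 ± 5.82. Fance, a subunit of the Fanconi anaemia core complex of DNA repair, was at 17.3 ± 1.25 and 23.7 ± 2.52 CPM. Spns2, an exporter of sphingosine 1-phosphate, was at 64.1 ± 6.68 and 96.3 ± 7.1 CPM, and Dok4, an adaptor below receptor tyrosine kinases, at 12.7 ± 1.24 and 19.5 ± 2.26. B3gnt3, a glycosyltransferase, was low in both groups, at 0.511 ± 0.127 against 1.27 ± 0.311 CPM. Exons of Spns2 and Dok4 overlap Mybbp1a and Polr2c on the opposite strand.

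Among genes higher with BCI-838, Penk had the smallest p and the largest difference of the 12 listed. Penk encodes proenkephalin, the precursor of enkephalin opioid peptides, at chr4:4133536-4138815. It was at 42.0, 229.5, 218.1 and 83.6 CPM in BCI-838 libraries 1 to 4 and at 25.4, 30.6, 22.0, 22.2 and 31.3 CPM in exercise libraries 1 to 5. The BCI-838 libraries differed several times over among themselves, and the lowest of them was above every exercise library. The log2 fold change was 2.45 (SE 0.50, adjusted p 0.0666 by edgeR), 2.39 without exercise library 4 (adjusted p 0.0208), 2.41 with the midbrain covariate and 2.46 with the length covariate. Untreated APP/PS1 mice were at 23.8 ± 6.92 CPM, near the exercise level, and mice given both treatments spread widely at 83.5 ± 75.8. Exons of Penk overlap a predicted transcript on the opposite strand.

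The other 11 genes of that direction had adjusted p between 0.0701 and 0.0795 and also did not pass. Rassf8, which encodes a Ras association domain protein, was at 15.2, 18.9, 23.9 and 22.5 CPM with BCI-838 and at 7.29, 8.03, 10.3, 10.999 and 6.55 with exercise (log2 fold change 1.22, SE 0.26, adjusted p 0.0701 by edgeR, and 1.33 with an adjusted p of 0.0158 without exercise library 4). Slc5a3, the sodium-coupled myo-inositol transporter, had 43.5 ± 6.55 against 27.7 ± 6.73 CPM, and was the only gene of the 24 with the smallest p whose groups overlapped. It shares exons with Mrps6 on the same strand, so its counts are uncertain.

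The remaining 9 differed by log2 values between 0.25 and 0.42, with tight groups. Fmn2, a formin that nucleates actin, was at 116 ± 4.37 against 93.1 ± 10.3 CPM. Golga4, a golgin of the trans-Golgi network, was at 139 ± 9.03 against 114 ± 11.2 CPM. Krit1, a scaffold at endothelial junctions that is mutated in cerebral cavernous malformation, was at 60.3 ± 1.5 against 50.5 ± 3.53 CPM. Mpp6, a membrane-associated guanylate kinase, was at 46.4 ± 3.8 against 34.6 ± 3.88 CPM, and C2cd3, a centriole protein, at 41.3 ± 1.53 against 31.9 ± 3.09. Glmn, Fam120b and Zfp790 had log2 fold changes of 0.34, 0.26 and 0.27. These 8 genes had log2 fold changes of 0.23 to 0.48 and adjusted p of 0.0158 to 0.0248 without exercise library 4. Exons of C2cd3 and Glmn overlap Ppme1 and Rpap2 on the opposite strand.

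In 22 of these 24 genes, 12 in each direction, the untreated APP/PS1 mean lay between the means of the 2 treatments. In 23 of the 24 the groups did not overlap, against 581 (3.18%) lower and 456 (2.49%) higher of all genes tested. These counts describe genes that were picked for their p and support nothing about them.

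Neither receptor targeted by the drug differed beyond the spread. Grm2 was at 80.8, 100.3, 81.8 and 80.5 CPM with BCI-838 and at 141, 127, 115, 77.4 and 119 with exercise (log2 fold change -0.43, SE 0.32, adjusted p 0.52 by edgeR, and -0.55 with an adjusted p of 0.33 without exercise library 4). Exercise library 4 was below all BCI-838 libraries and the other exercise libraries were above them. Grm3 was at 46.2, 49.2, 49.5 and 47.5 CPM against 39.1, 29.5, 47.4, 48.6 and 46.7 (log2 fold change 0.19, SE 0.18, adjusted p 0.644, and 0.25 with an adjusted p of 0.476 without exercise library 4). Of the 8 metabotropic glutamate receptors none was called, and 7 had a fitted level higher with BCI-838, with a median log2 fold change of 0.28. The median was 0.10 with the length covariate. Grm7, a presynaptic receptor of group III, was at 75.6 ± 1.94 against 61.8 ± 9.21 CPM (adjusted p 0.242), and Grm5, of group I, at 322 ± 42.1 against 269 ± 46.0 (adjusted p 0.353).

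Granule neurons are the main neurons of the tissue sampled. Of 20 genes of mature granule neurons none was called, 13 were lower with BCI-838, and the median log2 fold change was -0.26 (-0.39 without exercise library 4, with 2 called lower, against 3.96% of all genes). Calb1, the calcium buffer calbindin, which is abundant in mature granule neurons, was at 53.4, 28.5, 36.3 and 38.3 CPM with BCI-838 and at 115, 129, 115, 64.3 and 99.3 CPM with exercise. The groups did not overlap (log2 fold change -1.42, SE 0.36, adjusted p 0.0859 by edgeR, 0.0243 without exercise library 4), and untreated APP/PS1 mice were at 102 ± 40.8 CPM. Tdo2, the enzyme that opens the ring of tryptophan, was at 2.79, 1.60, 0.977 and 0.870 CPM against 12.1, 11.7, 15.5, 5.06 and 12.5 (log2 fold change -2.87, SE 0.71, adjusted p 0.0833, 0.0239 without exercise library 4). Untreated APP/PS1 library 3 and wild-type library 3, at 2.67 and 1.19 CPM, lay within the BCI-838 range. The other untreated APP/PS1 and wild-type libraries were above it, at 5.10 to 14.9 CPM.

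Prox1, the transcription factor that defines granule neuron identity, did not follow Calb1 and Tdo2. It was at 96.5 ± 12.7 CPM with BCI-838 and 96.0 ± 30.4 with exercise (log2 fold change 0.01, SE 0.49, adjusted p 0.996 by edgeR), and was chosen after its values were seen. Of 20 genes of CA field pyramidal neurons, the neighbouring cell type of the hippocampus, none was called, 15 were lower with BCI-838 and the median was -0.36. Their summed level ran from 1100 to 1596 CPM with BCI-838 and from 1434 to 2226 with exercise. With the midbrain covariate the median of the CA list was 0.00 and that of the granule list -0.16.

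Genes of neurogenesis gave no call with all libraries. The lists of stem and progenitor cells, of proliferation and of neuroblasts and immature neurons had 12 of 20, 13 of 21 and 13 of 22 members higher with BCI-838, with median log2 fold changes of 0.10, 0.06 and 0.11, against 49.1% of all genes higher. Mki67, a marker of dividing cells, was at 6.88 ± 0.847 CPM with BCI-838 and 6.39 ± 0.68 with exercise (adjusted p 0.912 by edgeR). Dcx, doublecortin, the microtubule protein of migrating neuroblasts, was at 37.5, 37.0, 37.2 and 49.4 CPM with BCI-838 and at 22.5, 27.5, 26.2, 36.0 and 21.0 with exercise. The groups did not overlap, by a narrow margin at exercise library 4 (log2 fold change 0.60, SE 0.21, adjusted p 0.163, 0.0404 without exercise library 4). Mki67 and Dcx were chosen after their values were seen.

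Within the neuroblast list the genes with the smallest p were tubulins that went the other way from Dcx. Tubb2a was at 337, 299, 331 and 326 CPM with BCI-838 and at 459, 422, 434, 402 and 515 with exercise (log2 fold change -0.47, SE 0.10, adjusted p 0.0701 by edgeR). Tubb2b was at 55.6 ± 5.97 against 80.8 ± 16.1 CPM (adjusted p 0.0859). Without exercise library 4, the list had 2 of 22 members called higher and 4 called lower, against 2.63% and 3.96% of all genes. The list median was 0.15 in that fit and -0.05 with the midbrain covariate. Among stem cell genes, Thrsp was at 22.9 ± 3.34 against 33.2 ± 7.38 CPM (adjusted p 0.138) and Hopx, a marker of quiescent neural stem cells, at 48.7 ± 9.21 against 62.1 ± 12.7 (adjusted p 0.23). Mcm3, a subunit of the replicative helicase, was at 3.54 ± 0.544 against 4.74 ± 0.05 CPM with no overlap (adjusted p 0.135), and Cdk1, the mitotic kinase, at 0.543 ± 0.253 against 0.222 ± 0.0989 (adjusted p 0.177).

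Peptide and growth factor genes showed a few large differences. Of 20 opioid and dentate neuropeptide genes, 11 were higher with BCI-838 and none was called (median log2 fold change 0.14). Without exercise library 4 the median was 0.31, with 3 called higher, against 2.63% of all genes, and none lower. The mean log2 level of the list was 4.31, 4.72, 4.83 and 4.42 in BCI-838 libraries 1 to 4 and 4.13, 3.93, 4.15, 4.41 and 4.26 in exercise libraries 1 to 5, so that only BCI-838 library 1 lay within the exercise range. Oprd1, the delta opioid receptor, on which enkephalins act, was at 23.1, 33.7, 27.1 and 25.9 CPM with BCI-838 and at 13.9, 9.83, 18.6, 17.5 and 14.0 with exercise (log2 fold change 0.89, SE 0.24, adjusted p 0.0898 by edgeR, 0.031 without exercise library 4). Npy, neuropeptide Y, chosen after its values were seen, was at 26.6, 108.5, 81.5 and 40.8 CPM against 38.5, 26.1, 44.3, 27.3 and 59.5 (adjusted p 0.366). BCI-838 libraries 2 and 3 were high and libraries 1 and 4 lower for Npy, the same order as for Penk.

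Of 21 growth factor and receptor genes linked to exercise, 10 were higher and none was called (median log2 fold change -0.02). Ntf3, neurotrophin 3, a ligand of TrkC, was at 4.80, 0.927, 0.522 and 1.25 CPM with BCI-838 and at 14.5, 11.7, 11.02, 7.58 and 13.4 with exercise, with no overlap (log2 fold change -2.64, SE 0.66, adjusted p 0.0858 by edgeR, 0.0266 without exercise library 4). Igf2r, the receptor that clears insulin-like growth factor 2, was at 54.2 ± 2.34 against 44.3 ± 6.79 CPM (adjusted p 0.214). Bdnf, brain-derived neurotrophic factor, chosen after its values were seen, was at 63.9, 108, 113 and 66.3 CPM against 55.8, 56.3, 63.2, 35.9 and 72.2 (log2 fold change 0.63, SE 0.31, adjusted p 0.309). BCI-838 libraries 2 and 3 were again the highest.

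Follistatin (Fst), a secreted inhibitor of activin, and the oxytocin receptor (Oxtr) were chosen after their values were seen. Fst was at 0.106, 0.0686, 0.168 and 0.171 CPM with BCI-838, a handful of reads each, and at 2.45, 1.06, 2.60, 1.10 and 2.65 with exercise (log2 fold change -3.92, SE 0.88, adjusted p 0.0756 by edgeR, and -4.06 with an adjusted p of 0.02 without exercise library 4). Oxtr was at 2.08, 5.78, 5.86 and 3.57 CPM against 2.27, 1.11, 2.37, 1.45 and 1.70 (log2 fold change 1.28, SE 0.31, adjusted p 0.0833). Only BCI-838 library 1 overlapped the exercise range for Oxtr.

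Among 19 genes of the Bcl2 apoptosis family none was called, 10 were lower with BCI-838 and the median log2 fold change was -0.08. Hrk, a BH3-only protein that promotes neuronal death, was at 32.2, 26.0, 20.6 and 20.8 CPM with BCI-838 and at 66.1, 49.6, 84.7, 40.2 and 72.1 with exercise. The groups did not overlap (log2 fold change -1.33, SE 0.30, adjusted p 0.0756 by edgeR, 0.016 without exercise library 4). Bax, the effector that permeabilises mitochondria, was at 30.1 ± 1.3 against 38.9 ± 6.37 CPM (adjusted p 0.0883).

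A broad pattern lay in short transcripts of housekeeping complexes. All 78 tested cytosolic ribosomal protein genes had a lower fitted level with BCI-838 than with exercise. Their median log2 fold change was -0.26. Of all genes tested, 50.9% were lower. None was called with all libraries, and 55 were lower at an unadjusted p under 0.05, against 9.79% of all genes. Without exercise library 4 the median was -0.35 and 54 of the 78 were called lower, against 3.96% of all genes. Ribosomal protein genes are regulated together, so they are not independent of each other.

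The ribosomal protein level per library, as the mean log2 CPM of the list, was 7.38, 7.32, 7.27 and 7.31 in BCI-838 libraries 1 to 4 and 7.80, 7.79, 7.39, 7.20 and 7.65 in exercise libraries 1 to 5. Exercise libraries 1, 2 and 5 were high, exercise library 3 was just above the highest BCI-838 library and exercise library 4 was below all. Untreated APP/PS1 mice were at 7.43 ± 0.11 (SD, n = 5). The median transcript length of the list was 1076 bases, within the shortest quintile of genes, and the same 3 exercise libraries had the smallest excess of long over short transcripts. With the length covariate the median log2 fold change of the list was -0.06, and with the midbrain covariate -0.22. Genes of the shortest quintile enter the length covariate, so part of the first shift can be built in.

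Rps2, of the small subunit, had the smallest p of the list, at 292, 285, 264 and 263 CPM with BCI-838 and 443, 386, 350, 283 and 416 with exercise (log2 fold change -0.45, SE 0.10, adjusted p 0.0793 by edgeR, 0.0138 without exercise library 4). Rps26 was at 137, 135, 128 and 131 CPM against 185, 189, 145, 152 and 179, with no overlap (log2 fold change -0.36, SE 0.09, adjusted p 0.0818). Ribosomal protein genes have many processed pseudogenes, with which reads may be shared.

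Ribosomal protein transcripts of mammals begin with a C and a run of pyrimidines, the 5′ terminal oligopyrimidine tract through which mTOR signalling regulates their translation. The start sites of 4 of the genes are shown for comparison with this feature, each as 30 bases around the annotated RefSeq start (GRCm38.p6). They are chr17:24720048-24720077 on the plus strand for Rps2 and chr10:128626492-128626521 on the minus strand for Rps26. For Rplp2 and Rpl7a they are chr7:141447636-141447665 and chr2:26910792-26910821, each on the plus strand. The capitals mark a run of at least 6 pyrimidines (C or T) that reaches to within 5 bases of the start. The annotated start lies inside the run in Rplp2, on a C, and in Rpl7a, on a T. In Rps2 and Rps26 the run begins after the annotated start, so these windows do not show a transcript that begins with it.
Rps2: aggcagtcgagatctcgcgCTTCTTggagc
Rps26: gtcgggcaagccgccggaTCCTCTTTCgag
Rplp2: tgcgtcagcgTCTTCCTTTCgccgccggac
Rpl7a: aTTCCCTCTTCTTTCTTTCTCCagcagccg
Such a run was found in 30 of 56 cytosolic ribosomal protein genes with a RefSeq promoter entry (53.6%), in 17 of 65 mitochondrial ribosomal protein genes (26.2%), in 15 of 60 genes of the respiratory chain (25%), in 9 of 25 proteasome genes (36%) and in 24.9% of 12108 genes tested. Rplp2 and Rpl7a had log2 fold changes of -0.44 and -0.31. The counts measure RNA levels, not translation.

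The genes that encode mitochondrial ribosomal proteins, the respiratory chain and the proteasome leaned the same way. Of 76 mitochondrial ribosomal protein genes, 72 were lower with BCI-838 (median log2 fold change -0.17), of 73 genes of the respiratory chain and ATP synthase 71 (median -0.22), and of 31 proteasome genes 29 (median -0.16). None was called with all libraries. Without exercise library 4, 17, 22 and 13 of them were called lower, against 3.96% of all genes, and none higher, against 2.63%. With the length covariate the medians were -0.07 in each of the 3 lists.

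Per library, the respiratory chain list was at 6.36, 6.36, 6.38 and 6.37 with BCI-838 and at 6.70, 6.65, 6.42, 6.36 and 6.68 with exercise, in mean log2 CPM. The exercise group again held the 3 high libraries 1, 2 and 5. Ndufs3, a core subunit of complex I, was at 75.4, 76.2, 77.3 and 75.0 CPM against 93.8, 98.7, 86.3, 77.5 and 101 (log2 fold change -0.27, SE 0.07, adjusted p 0.0875 by edgeR), and Ndufv3, an accessory subunit, was at 48.4 ± 0.95 against 57.8 ± 5.78. Mrpl17, of the large mitochondrial ribosomal subunit, was at 26.8, 27.7, 25.7 and 26.0 CPM against 34.0, 30.05, 31.4, 30.7 and 32.6 with no overlap (log2 fold change -0.26, SE 0.06, adjusted p 0.0756), and Mrps34, of the small subunit, at 37.7 ± 1.12 against 50.2 ± 8.8. Psmb2 and Psmb3, subunits of the proteasome core, were at 44.6 ± 1.27 against 54.4 ± 4.47 and at 51.4 ± 1.92 against 64.1 ± 6.78 CPM. The plot of these 4 lists shows the same libraries high in each.

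**Figure D4:**
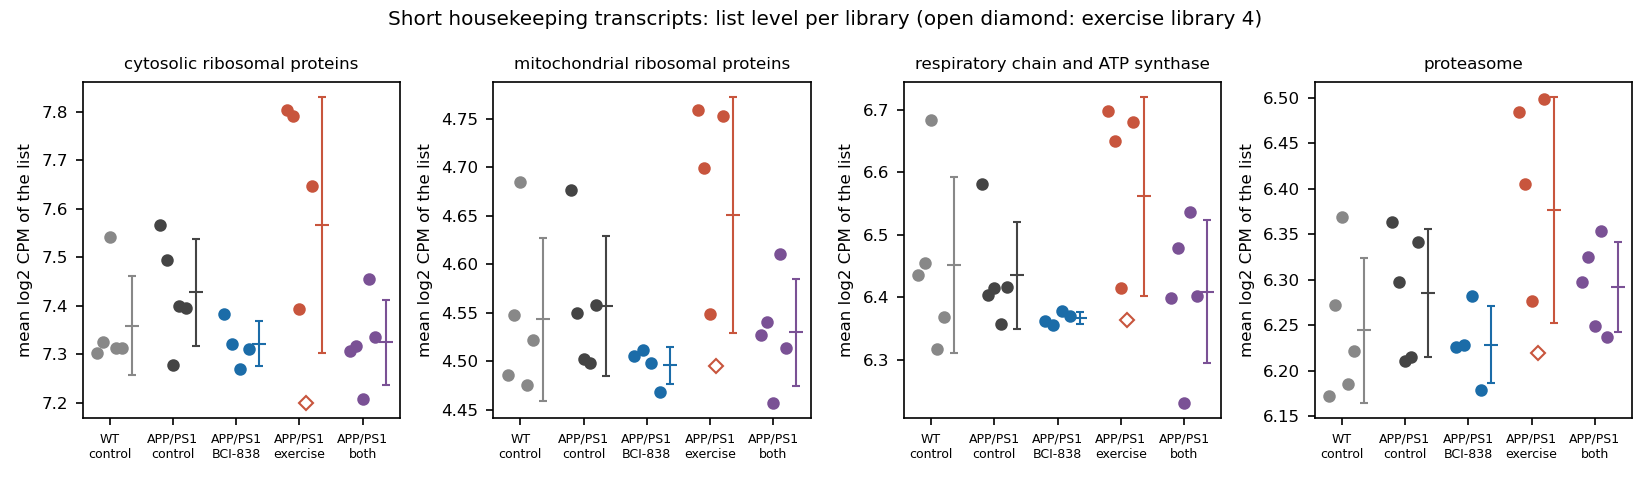
Mean log2 CPM of 4 gene lists per library in the 5 groups (points; the bars are mean and SD). In the exercise group libraries 1, 2 and 5 are high in each list and library 4, the open diamond, is the lowest, at 7.20 for cytosolic ribosomal proteins against 7.27 to 7.38 in the BCI-838 libraries.

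Lists of synapse and channel genes, whose transcripts are long, did not share 1 direction. Of 38 genes of synaptic vesicles and active zones, 26 were higher with BCI-838 (median log2 fold change 0.06, and 0.02 with the length covariate) and none was called. Their mean log2 level was above all exercise libraries in each BCI-838 library, at 7.79 to 7.85 against 7.50 to 7.76. Syn3, synapsin III, a vesicle protein prominent in developing neurons, was at 136, 149, 154 and 140 CPM with BCI-838 and at 83.7, 91.3, 99.5, 91.7 and 81.7 with exercise, with no overlap and with exercise library 4 inside its group (log2 fold change 0.69, SE 0.19, adjusted p 0.0927 by edgeR, 0.0405 without exercise library 4). Pclo, the active zone scaffold piccolo, was at 368 ± 11.8 against 269 ± 55.9 CPM, without overlap (adjusted p 0.137).

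Of 14 GABA-A receptor subunit genes, 11 were higher with BCI-838 and none was called. The median log2 fold change of the list was 0.37. Gabrb2, a beta subunit of synaptic receptors, was at 386, 410, 448 and 408 CPM with BCI-838 and at 245.3, 248, 363, 354 and 276 with exercise (log2 fold change 0.48, SE 0.15, adjusted p 0.137 by edgeR). Gabrd, the delta subunit of extrasynaptic receptors, which granule neurons carry, went the other way, at 29.3, 37.4, 27.4 and 26.1 CPM against 58.0, 56.4, 51.9, 30.6 and 53.4 (log2 fold change -0.74, SE 0.23, adjusted p 0.135). Without exercise library 4, 2 of the 14 were called higher, against 2.63% of all genes, and 1, Gabrd, lower, against 3.96%. The list median was 0.19 with the midbrain covariate and 0.20 with the length covariate.

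Other neuronal groups had medians nearer 0. Of 36 potassium channel genes, 26 were higher (median log2 fold change 0.14, and -0.03 with the length covariate). Kcnj10, the glial potassium channel Kir4.1, was at 308 ± 40.4 against 219 ± 55.3 CPM (adjusted p 0.189 by edgeR), and Kcnj4, a neuronal inward rectifier, at 89.3 ± 14.8 against 128 ± 27.9 (adjusted p 0.157). Of 23 sodium and calcium channel genes 14 were higher (median 0.05, and -0.05 with the length covariate), with Scn1a at 234 ± 37.6 against 161 ± 64.5 CPM and the beta subunit Scn3b at 178 ± 58.2 against 283 ± 46.1. Of 35 ionotropic glutamate receptor and postsynaptic genes, 17 were higher (median -0.03, and -0.12 with the length covariate), with the kainate receptor subunit Grik5 at 226 ± 21.5 against 294 ± 46.4 CPM and the kinase Camk2b at 1267 ± 199.96 against 1778 ± 312.

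Activity-dependent transcripts were compared as a record of recent firing. Of 24 immediate early genes 8 were higher and 16 lower with BCI-838 (median log2 fold change -0.24), and none was called with all libraries or without exercise library 4. Egr4, an activity-induced transcription factor, was at 14.5, 11.4, 9.72 and 9.40 CPM with BCI-838 and at 20.03, 14.2, 19.9, 19.9 and 30.8 with exercise (log2 fold change -0.90, SE 0.30, adjusted p 0.149 by edgeR). Only BCI-838 library 1 and exercise library 2 overlapped. Arl4d was at 10.3 ± 1.19 against 13.4 ± 2.92 CPM. With the midbrain covariate the median of the list was -0.05.

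The interneuron list and the subiculum and entorhinal list had their highest level of the 9 libraries in exercise library 4, at 5.25 and 5.69 (mean log2 CPM). Other lists of neighbouring regions did not: the thalamus and cortex list was at 4.24 there against 4.73 in exercise library 2, and the CA field list at 5.11 against 5.62 in exercise library 5. Of 20 interneuron genes 11 were higher with BCI-838 (median log2 fold change 0.08, 0.18 without that library). Gad2, which makes the transmitter GABA, was at 318, 290, 409 and 370 CPM with BCI-838 and at 163, 129, 206, 377 and 151 with exercise (adjusted p 0.216 by edgeR, 0.0294 without exercise library 4). Cort, cortistatin, of a subset of interneurons, was at 2.29 ± 1.06 against 6.79 ± 2.75 CPM (adjusted p 0.125). All 12 genes of the subiculum and entorhinal list were higher with BCI-838 (median 0.25, and 0.04 with the midbrain covariate), with Reln at 133, 120, 159 and 155 CPM against 74.1, 47.7, 98.0, 165 and 65.2. The high exercise value of Gad2 and Reln was library 4 in each case.

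Glial and vascular lists gave no call. Resting astrocyte genes were higher in 13 of 16 and reactive astrocyte genes in 17 of 23 (median log2 fold changes 0.06 and 0.10, and -0.03 and 0.10 with the midbrain covariate). C4b, a complement component that rises in reactive astrocytes, was at 66.0, 83.7, 78.6 and 82.7 CPM with BCI-838 and at 60.7, 52.5, 56.2, 45.2 and 36.1 with exercise, with no overlap (log2 fold change 0.63, SE 0.22, adjusted p 0.162 by edgeR). Gfap, the astrocyte filament protein, chosen after its values were seen, was at 670 ± 71.0 against 454 ± 66.7 CPM (adjusted p 0.233). Its groups did not overlap, by a narrow margin, with BCI-838 library 1 at 566.54 and exercise library 1 at 564.85 CPM. Aqp4, the water channel of astrocyte endfeet, was at 264 ± 27.8 against 185 ± 41.3 CPM (adjusted p 0.236) and Fgfr3 at 151 ± 19.3 against 123 ± 20.04.

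Microglial lists had medians close to 0, and their sign turned with the covariates. Of 25 genes that microglia raise at plaques, 11 were higher (median log2 fold change -0.02, and 0.07 with the length covariate), and of 20 homeostatic microglial genes 5 (median -0.10, and 0.04 with the midbrain covariate). Csf1, a cytokine that sustains microglia, was at 28.4 ± 4.58 against 38.5 ± 6.59 CPM (adjusted p 0.201 by edgeR), and Axl, a receptor for apoptotic cells, at 60.5 ± 4.53 against 53.1 ± 4.18 (adjusted p 0.234). Of 16 amyloid processing genes 10 were higher (median 0.10), with Aph1a, a subunit of gamma-secretase, at 38.8 ± 1.85 against 45.6 ± 3.47 CPM (adjusted p 0.12). Oligodendrocyte and myelin genes were higher in 6 of 20 (median -0.12) with no member at an unadjusted p under 0.05.

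Of 20 endothelial genes 18 were lower with BCI-838 (median log2 fold change -0.18), and of 8 haemoglobin and erythroid genes all 8 (median -0.48). Tie1, an endothelial receptor, was at 8.49, 15.03, 10.4 and 12.4 CPM with BCI-838 and at 19.5, 20.3, 13.04, 14.96 and 14.6 with exercise (log2 fold change -0.51, SE 0.16, adjusted p 0.131 by edgeR). Hba-a1, an alpha globin of red cells, was at 8.88, 8.12, 7.01 and 14.1 CPM against 10.5, 17.6, 8.09, 24.4 and 11.2 (adjusted p 0.292). Both genes overlapped between the groups. Col1a1 and Col3a1, collagens of fibroblasts, were at 21.4 ± 9.58 against 10.8 ± 4.31 and 10.5 ± 6.46 against 3.74 ± 1.75 CPM, with BCI-838 library 1 low in both. They were not matched by their list. Of 23 mural cell and meningeal fibroblast genes 10 were higher and 13 lower (median -0.05, and -0.27 with the midbrain covariate).

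**Figure D5:**
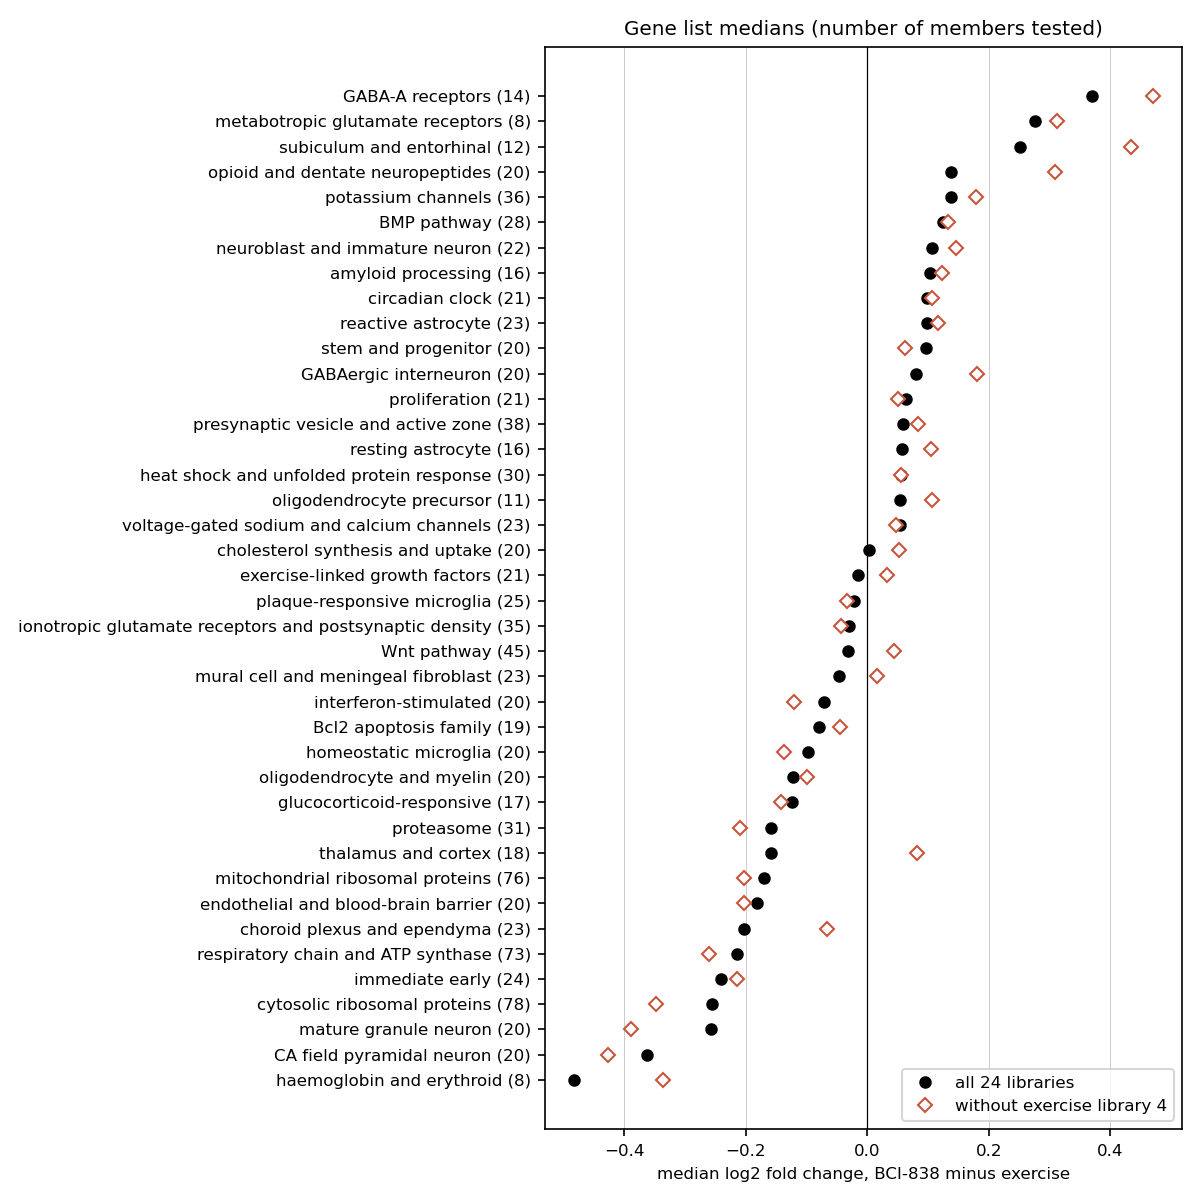
Median log2 fold change, BCI-838 minus exercise, of 40 gene lists (x axis; y axis, the list with its number of genes tested) with all 24 libraries (filled circles) and without exercise library 4 (open diamonds); the dorsal midbrain, rRNA-like and transgene-related lists, with medians of 1.17, 0.70 and 0.09, are not drawn. Of the lists drawn, haemoglobin, CA field, granule neuron and ribosomal protein lists lie lowest, at -0.48, -0.36, -0.26 and -0.26, and GABA-A receptors highest, at 0.37.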

How the data were processed

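RNA from the dentate gyrus of single mice was sequenced, and the authors deposited whole-number read counts per gene in 1 table of 26667 genes. STAR, HTSeq, DESeq and the build mm10 are named in the submitters' processing notes. A second table of normalised values was not used here. The sources used here give no versions, read layout or use of strand. Library totals were 48656360 to 64632882. No pair of the 9 libraries agreed within sampling noise (lowest chi-square per gene 18.6).

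The filterByExpr function (minimum count 10, minimum total 15) kept 18286 genes. Counts with TMM factors were fitted in edgeR 4.0.16 (R 4.3.3) with 1 mean per group over all 24 libraries and robust quasi-likelihood dispersions. The contrast BCI-838 minus exercise was tested with Benjamini-Hochberg adjustment, and genes were called at an adjusted p under 0.05. SE is the fold change (log2) over √F. CPM are scaled by TMM, and ± is the SD over libraries. List levels are means of log2 CPM with a prior count of 2. The fit was tested on simulated data.

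Genes named are the 12 with the smallest p in each direction that have a name of their own, Grm2, Grm3, App, Prnp, and of each of 43 lists the called members up to 4, or the 2 with the smallest p (some genes that this rule names are not reported here). Others are said to be chosen after their values were seen. The groups and lists were chosen with earlier results of these data known. Transcript lengths and GC content (96% of genes tested), coordinates and sequences are from the GRCm38 annotation and RefSeq, matched by symbol. The alternatives used DESeq2 1.42.0, limma 3.58.1 and sva 3.50.0.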

Additional observations from a re-analysis of the deposited data

Results flagged for a closer look

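In 18 of 324 groups of values tested, 1 library was set apart from its group by Dixon's criterion, which sets the gap against the range of the group. Chance flags about 1 in 20, so the count is near that of chance, and some flagged gaps are small. Of the 18 flags, 5 were in exercise library 4. They were Mcm3 at 4.65 CPM, against 4.74 to 4.77 in the other exercise libraries, Gabrd at 30.6, Frzb (a secreted Wnt antagonist) at 3.42, Mvd at 16.4 and, above its group, Pax7 at 16.1. The other exercise libraries set apart were library 5 for Cck at 314.7 CPM and Opalin at 54.9, and library 3 for Rsad2 at 1.87 CPM and the neuroblast and immature neuron level at 5.91 (mean log2 CPM).

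Among BCI-838 libraries, library 4 was set apart for C2cd3 at 39.1 CPM, Prkcd at 28.3 and Dcx at 49.4. Library 2 was set apart for Grm2 at 100.3 CPM and Psmb2 at 42.7. Library 1 was set apart for Ntf3 at 4.80 CPM, for Slc4a1 at 0 and for the mural cell and meningeal fibroblast level at 3.33 (mean log2 CPM), and library 3 for the excess of long over short transcripts at 3.72 (log2).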

How the results depend on the processing

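The count of called genes depended on the processing. It was 4 with DESeq size factors and without a filter, and 6 with a filter of 1 CPM in 4 libraries. It was 90 (30 higher, 60 lower with BCI-838) in the 9 libraries alone, 1 (lower) without libraries above 100 CPM of Ttr, 425 (129 and 296) with DESeq2, 3424 (1618 and 1806) with voom and quality weights, 269 (78 and 191) with 1 surrogate variable, 196 (54 and 142) with a covariate for CA over granule markers and 0 with a dorsal midbrain covariate. Leaving out 1 library gave between 1 and 1200 calls, 0 to 479 higher and 1 to 721 lower, with the highest of each without exercise library 4 and the next, 36 (9 and 27), without exercise library 3. In 3 alternatives chosen after seeing the data, the compared libraries alone without exercise library 4 gave 1963 calls (869 and 1094), and the midbrain covariate without that library and the length covariate gave 0 each (3585 and 1600 genes at an unadjusted p under 0.05). The causes were not tested. Higher calls were 39.9% of calls without exercise library 4 and 47.3% with voom.

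The replicate block, a term for the replicate number in the labels, left 1 call, lower with BCI-838. Same-numbered libraries did not deviate together (correlations -0.0035, -0.11, -0.045 and 0.107 for numbers 1 to 4), and the labels do not say that a number marks a shared litter or day.

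Of 2685 fold changes of single named genes under 23 settings, 2668 kept their direction. The other 17 were of genes far from the threshold. Prnp turned to 0.106 and 0.114 with the midbrain covariate in both forms, to 0.0386 without BCI-838 library 4 and 0.0454 without exercise library 5 (range -0.0673 to 0.0454 over fits that left out 1 library) and to 0.0222 with the length covariate. With the midbrain covariate, with and without exercise library 4, Tfap2d turned to -0.29 and -0.64 and Pax7 to -0.54 and -0.67. Tfap2d and Pax7 are members of the list that forms this covariate. Mki67 turned to -0.0404 with the length covariate. Prox1 turned negative without BCI-838 library 2 or exercise library 1, 4 or 5 (range -0.12 to 0.193 over fits that left out 1 library), and to -0.129 and -0.0581 in the added fits without exercise library 4, and to -0.29 with the length covariate. Of 989 list medians, 33 moved by more than 1 SD of the libraries and 59 changed sign, in 18 lists. No scaling moved the median of all genes by 0.1 (log2).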

Other observations

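Gene groups outside the treatments' known targets gave no call with all libraries. Of 21 circadian clock genes 13 were higher with BCI-838 (median log2 fold change 0.10), and Bhlhe41, a repressor of the clock also called Dec2, was at 45.6, 68.7, 72.5 and 66.8 CPM with BCI-838 and at 39.1, 36.6, 36.0, 42.9 and 35.2 with exercise. The groups did not overlap (log2 fold change 0.74, SE 0.20, adjusted p 0.089 by edgeR, 0.0319 without exercise library 4). Nr1d1, which encodes the repressor Rev-erb alpha, was at 214 ± 16.5 against 254.7 ± 26.8 CPM (adjusted p 0.176). Of 30 heat shock and unfolded protein response genes 19 were higher (median 0.06), 7 of them at an unadjusted p under 0.05, against 7.3% of all genes, and none lower at that p, against 9.79%. None was called without exercise library 4. Hsph1, a chaperone of the Hsp110 family, was at 287, 409, 435 and 317 CPM against 212, 221, 271, 230 and 283 (adjusted p 0.105), and Hspa5, the chaperone BiP of the endoplasmic reticulum, at 180 ± 13.6 against 146 ± 4.05 (adjusted p 0.144). Neither overlapped between the groups.

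Of 17 glucocorticoid-responsive genes 11 were lower with BCI-838 (median log2 fold change -0.12), and the mean log2 level of the list was 5.41 to 5.50 in the BCI-838 libraries, below the lowest exercise library at 5.51. Ddit4, an inhibitor of mTOR signalling, was at 44.7, 43.5, 38.9 and 46.5 CPM against 68.3, 58.8, 60.6, 38.8 and 68.3, low in exercise library 4 alone (adjusted p 0.142 by edgeR, 0.0179 without that library). Hsd11b1, which regenerates active glucocorticoid, was at 28.3 ± 1.95 against 34.8 ± 4.19 CPM (adjusted p 0.137). Of 28 BMP pathway genes 18 were higher (median 0.12), with Smad9, a BMP signal transducer, at 25.6 ± 3.08 against 18.0 ± 3.15 CPM (adjusted p 0.123). Of 45 Wnt pathway genes 21 were higher (median -0.03), so Wnt9a and Frzb, at 4.55 ± 1.23 against 10.6 ± 4.07 CPM, were not matched by the list. Cholesterol synthesis genes were higher in 10 of 20 (median 0.00), with Mvd and Dhcr7 at 14.4 ± 2.34 against 19.0 ± 1.45 and 29.5 ± 1.41 against 35.5 ± 2.84 CPM. Interferon-stimulated genes were higher in 7 of 20 (median -0.07), with no member at an unadjusted p under 0.05.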
